A study of Mus musculus with 6 samples.

Results

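The genes described here are 10 rows of the deposited expression table of newborn mouse interscapular brown fat, out of 19241 genes. They were picked by symbol: the FOXO factors Foxo1 and Foxo3, the fasting-linked genes Klf15, Pik3ip1, Ivns1abp, Crebrf, Sesn1 and Txnip, and the atrophy ubiquitin ligases Fbxo32 and Trim63. RNA from the whole depot was sequenced in bulk in 6 libraries. The 3 WT libraries came from newborn mice with the Fstl1-floxed genotype, and the 3 KO libraries from newborn Myf5-Fstl1 KO mice, in which Fstl1 is removed in cells with a history of Myf5 expression. The WT mice thus carried the floxed allele, and the labels give neither the Cre allele, the litter nor the sex. The Myf5 lineage holds skeletal muscle and much of the interscapular brown fat, while vessels and blood cells of the depot lie outside it. Nothing in the labels says that each library is a separate animal, so the error given is the spread between libraries, which may be technical. The 10 genes were chosen with their difference between KO and WT known, and that difference is given as a description, with no test or call for any of them.

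FOXO proteins are transcription factors that insulin holds in the cytoplasm: AKT phosphorylates them, and they return to the nucleus when insulin and growth factor signals drop, as in fasting. In muscle they switch on the ubiquitin ligase genes Fbxo32 (atrogin-1) and Trim63 (MuRF1), which mark proteins of the fibre for the proteasome, together with genes of autophagy. Glucocorticoids act beside them in fasting and raise Klf15, a zinc-finger factor of amino acid and glucose metabolism. In fat cells FOXO1 also promotes expression of the triglyceride lipase ATGL.

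Promoter windows from RefSeq, 250 bases before to 50 after a start site in GRCm38.p6, were matched for 9 of the 10 genes, in 11 windows. Fbxo32 was not matched. The FOXO core element GTAAACA, searched on both strands, was in 3 of the 9 genes, Trim63, Txnip and Sesn1, and in 3.65% of all 32851 windows of that length. The E-box CACGTG was in Klf15, Crebrf and Ivns1abp, and in 7.15% of all windows. The insulin response element CAAAACA was found in Crebrf alone (6.28% of all windows) and the glucocorticoid half-site AGAACA in Trim63 alone (19.0% of all windows). The GC box GGGCGGG was in 7 of the 9 genes (25.6% of all windows) and CCAAT in 5 (37.4% of all windows). By window, the unit of these shares, the FOXO core element was in 3 of the 11 and the E-box in 4. The GC box was in 9, CCAAT in 6, and the insulin response element and the half-site in 1 each. These are letter matches and not sites shown to be bound. The 4 upstream stretches below are shown because they hold the FOXO elements of a ligase and of Txnip, and the E-boxes of Klf15 and Crebrf, whose levels are described after them. Capitals mark the FOXO core element and, in Trim63, also the half-site directly before it, and in Klf15 and Crebrf the E-boxes. Each stretch ends at the base before the start site.
Trim63 (chr4:134314870-134315119, plus strand): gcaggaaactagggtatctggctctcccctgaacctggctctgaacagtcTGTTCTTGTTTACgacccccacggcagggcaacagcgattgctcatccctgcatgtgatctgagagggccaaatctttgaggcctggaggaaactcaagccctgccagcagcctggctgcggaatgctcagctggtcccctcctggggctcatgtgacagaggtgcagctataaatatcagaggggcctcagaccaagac
Txnip (chr3:96557707-96557956, plus strand): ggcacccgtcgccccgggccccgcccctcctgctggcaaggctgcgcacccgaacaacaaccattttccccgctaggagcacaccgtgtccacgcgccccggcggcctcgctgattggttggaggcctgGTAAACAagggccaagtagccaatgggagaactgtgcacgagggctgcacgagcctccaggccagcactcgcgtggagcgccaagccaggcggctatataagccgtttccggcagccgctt
Klf15 (chr6:90462326-90462575, plus strand): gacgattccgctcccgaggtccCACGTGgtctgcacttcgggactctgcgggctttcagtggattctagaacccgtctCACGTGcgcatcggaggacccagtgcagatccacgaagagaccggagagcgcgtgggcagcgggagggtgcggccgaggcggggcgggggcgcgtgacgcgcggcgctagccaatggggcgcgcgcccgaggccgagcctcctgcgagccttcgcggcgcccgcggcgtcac
Crebrf (chr17:26715400-26715649, plus strand): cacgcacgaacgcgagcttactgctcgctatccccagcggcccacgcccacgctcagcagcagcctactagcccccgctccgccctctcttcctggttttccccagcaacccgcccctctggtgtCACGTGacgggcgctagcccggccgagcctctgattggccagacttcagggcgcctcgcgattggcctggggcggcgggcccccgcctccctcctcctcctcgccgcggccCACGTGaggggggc
In Trim63 the FOXO element begins 194 bases upstream of the start, on the minus strand, and the half-site 200 bases upstream. In Txnip the FOXO element begins 121 bases upstream, on the plus strand. The Klf15 window holds E-boxes 228 and 172 bases upstream and another that spans the start itself, and the Crebrf window holds them 125 and 14 bases upstream. The Sesn1 match lies at base 23 after a start, and the insulin response element of Crebrf at base 42 after its start.

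Across the table, 13331 genes averaged 0.5 FPKM or more and were tested, the 10 included (FPKM counts fragments relative to transcript length and to all mapped fragments). The summed FPKM of a library ranged from 486449 to 556968, and each library held an estimated 14300000 to 14800000 reads, judged from the spacing of its low values. Fstl1, the targeted gene, was at 54.37 to 130.04 FPKM in WT and at 7.93 to 13.08 FPKM in KO. The Y-linked gene Ddx3y was at 59.54 to 60.82 FPKM in the KO libraries and at most at 0.23 FPKM in WT, while Xist was at 44.82 to 85.51 FPKM in WT and at most at 0.92 FPKM in KO. Genotype and sex therefore cannot be told apart in these libraries. All 10 genes lie on autosomes.

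All 10 genes had a higher mean in KO than in WT. In 7 of them each KO library lay above every WT library, against 13.6% of all tested genes in that direction (24.9% in either direction). The genes were picked with this contrast known, so nothing is read from these counts. The median log2 fold change was 0.99 over the 10 genes and 0.01 over all tested genes, on the log2(FPKM + 1) scale. In bulk RNA, a change in the number of cells of a type and a change in RNA per cell cannot be told apart.

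**Figure D1:**
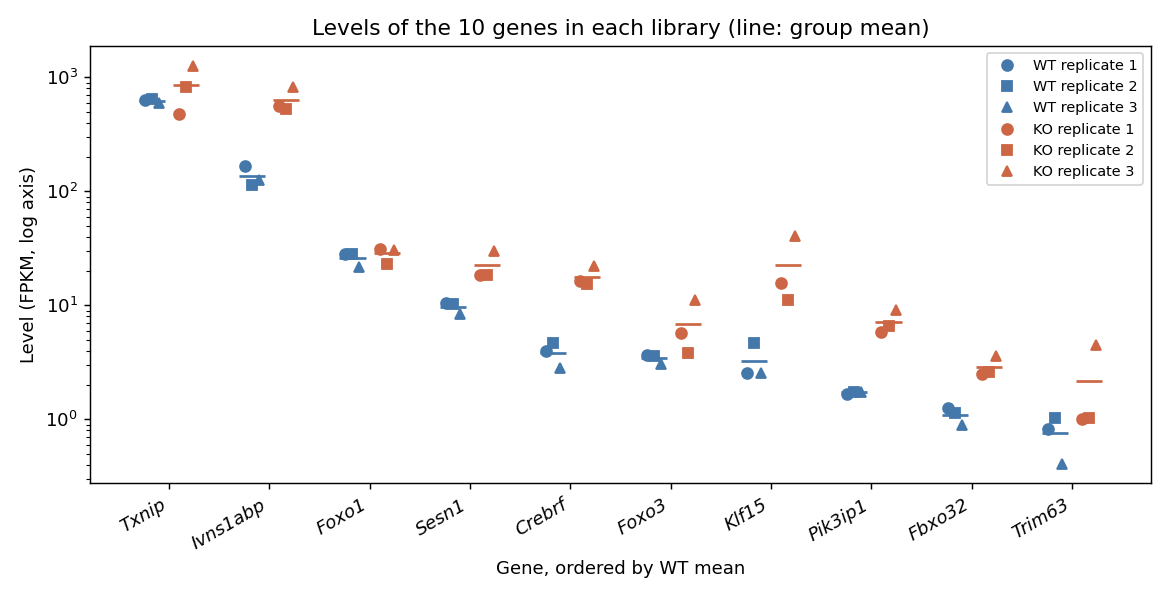
FPKM (log axis) of each of the 10 genes in the 3 WT libraries (blue) and 3 KO libraries (orange), ordered by WT mean; marker shapes give the replicate and lines the group means. Ivns1abp, Sesn1, Crebrf, Foxo3, Klf15, Pik3ip1 and Fbxo32 show no overlap between groups, and KO replicate 3 is the highest KO library in 9 of the 10 genes.

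Of the FOXO factors, Foxo1 was the more abundant and nearly level between groups. Values are given in the order of replicates 1, 2 and 3. Foxo1 measured 28.05, 28.13 and 21.62 FPKM in the WT libraries and 31.36, 23.14 and 30.88 FPKM in KO. The groups overlapped, with KO replicate 2 below 2 of the WT libraries. Foxo1 averaged 25.9 ± 3.74 FPKM in WT and 28.5 ± 4.61 FPKM in KO (SD, n = 3 each), which differ by 0.13 on the log2 scale (standard error 0.17). Foxo3 measured 3.68, 3.59 and 3.04 FPKM in the WT libraries and 5.76, 3.81 and 11.15 FPKM in KO. Its KO libraries all lay above WT, but KO replicate 2 did so by a small margin and KO replicate 3 stood well above the rest. The KO mean of Foxo3 was 2.01 times the WT mean, and 1.39 times when KO replicate 3 was set aside. The log2 difference of Foxo3 was 0.73 (standard error 0.30), and 0.37 without that library.

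Pik3ip1 and Sesn1 encode brakes on growth signalling. Pik3ip1 encodes a membrane protein that binds and inhibits the catalytic subunit of PI3-kinase, upstream of AKT and FOXO. Pik3ip1 measured 1.68, 1.75 and 1.75 FPKM in the WT libraries and 5.79, 6.6 and 9.02 FPKM in KO. The WT libraries were nearly identical and the lowest KO library was more than 3 times as high. Pik3ip1 averaged 1.73 ± 0.0404 FPKM in WT and 7.14 ± 1.68 FPKM in KO (SD, n = 3), a ratio of 4.13. Its log2 fold change was 1.56 (standard error 0.17), and 1.96 at a pseudocount of 0.1 FPKM, which compresses low values less than a pseudocount of 1. Sesn1 encodes sestrin 1, a stress-inducible protein that restrains mTORC1 through the GATOR complexes. Sesn1 measured 10.5, 10.36 and 8.32 FPKM in the WT libraries and 18.61, 18.48 and 30.03 FPKM in KO. The groups were apart, with KO replicates 1 and 2 close together. Its KO mean was 2.3 times the WT mean and 1.91 times without KO replicate 3, and its log2 fold change was 1.09 (standard error 0.21).

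Klf15, Crebrf and Ivns1abp had the 3 highest ratios of KO to WT. Klf15 measured 2.56, 4.71 and 2.57 FPKM in the WT libraries and 15.65, 11.19 and 40.63 FPKM in KO. The lowest KO library was above the highest WT library, and KO replicate 3 was 3.03 times the mean of the other KO libraries. The KO mean was 6.86 times the WT mean with all libraries and 4.09 times without KO replicate 3, where the log2 fold change went from 2.29 to 1.77. Crebrf encodes a regulator that binds CREB3 and promotes its breakdown, and that is induced by nutrient starvation. Crebrf measured 3.95, 4.63 and 2.83 FPKM in the WT libraries and 16.21, 15.42 and 22.02 FPKM in KO. All KO libraries were more than 3 times the highest WT library, and the spread within each group was small beside that gap. Crebrf averaged 3.8 ± 0.909 FPKM in WT and 17.9 ± 3.6 FPKM in KO (SD, n = 3), and its log2 fold change was 1.98 (standard error 0.20). Ivns1abp encodes a kelch-repeat protein known as a partner of the influenza NS1 protein. Ivns1abp measured 167.88, 114.6 and 125.48 FPKM in the WT libraries and 556.96, 525.68 and 824.29 FPKM in KO. The lowest KO library of Ivns1abp was more than 3 times the highest WT library. Its KO mean was 4.67 times the WT mean, and its log2 fold change was 2.21 (standard error 0.21). E-boxes were found in the windows of these 3 genes, as described above. Pik3ip1, with a ratio of 4.13, had none in its window, and a link between E-boxes and levels was not tested.

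**Figure D2:**
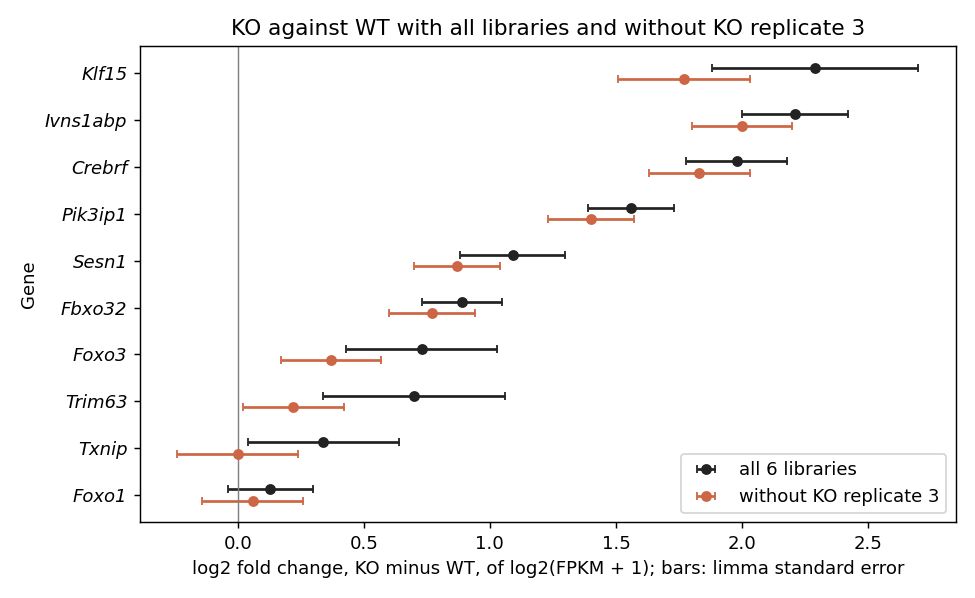
Log2 fold change (KO minus WT, of log2(FPKM + 1)) of the 10 genes with all 6 libraries (black) and without KO replicate 3 (orange); bars are limma standard errors. Without that library Trim63 goes from 0.70 to 0.22 and Txnip from 0.34 to 0.00, while Ivns1abp stays at 2.0 and Crebrf at 1.83.

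The ubiquitin ligases were the lowest of the 10 genes. Fbxo32 measured 1.25, 1.14 and 0.89 FPKM in the WT libraries and 2.49, 2.61 and 3.58 FPKM in KO. The groups did not overlap, with averages of 1.09 ± 0.184 FPKM in WT and 2.89 ± 0.598 FPKM in KO (SD, n = 3). The ratio of Fbxo32 means was 2.65, or 2.33 without KO replicate 3. Trim63 measured 0.83, 1.02 and 0.41 FPKM in the WT libraries and 1.01, 1.02 and 4.45 FPKM in KO. KO replicates 1 and 2 lay at the top of the WT range, not above it, and KO replicate 3 stood alone above all others. The ratio of Trim63 means was 2.87 with that library and 1.35 without it. By the depth estimate, Trim63 had about 10.9 to 27.8 reads in 5 libraries and 121 in KO replicate 3, while Fbxo32 had 88.6 to 366 reads. The log2 fold change was 0.89 (standard error 0.16) for Fbxo32 and 0.70 (standard error 0.36) for Trim63. At a pseudocount of 0.1 FPKM they were 1.32 and 1.14, since a pseudocount of 1 compresses values this low.

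Both ligases are best known from skeletal muscle, which borders the depot. The summed FPKM of 20 muscle fibre markers was 1390, 2020 and 1600 in WT replicates 1, 2 and 3 and 344, 1510 and 1840 in KO replicates 1, 2 and 3. The muscle marker sum was therefore lowest in KO replicate 1 and overlapped between groups otherwise. KO replicate 3, where Trim63 was high, was the highest KO library in 16 of the 19 tested markers, against 26.0% of all tested genes. The median log2 difference between KO replicate 3 and the mean of the other KO libraries was 1.17 over these markers. That mean includes the low KO replicate 1. Of the 19 muscle markers tested, 18 were fitted lower in KO and 0 were called in limma at an adjusted p of 0.05 over all genes, with 2 at an unadjusted p under 0.05 (19.2% of all tested genes). No muscle marker was listed at 0 in every library. In KO replicate 1, where the muscle marker sum was lowest, Fbxo32 was at 2.49 FPKM, above all WT libraries. The part of muscle RNA in the Fbxo32 and Trim63 values was not tested.

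**Figure D3:**
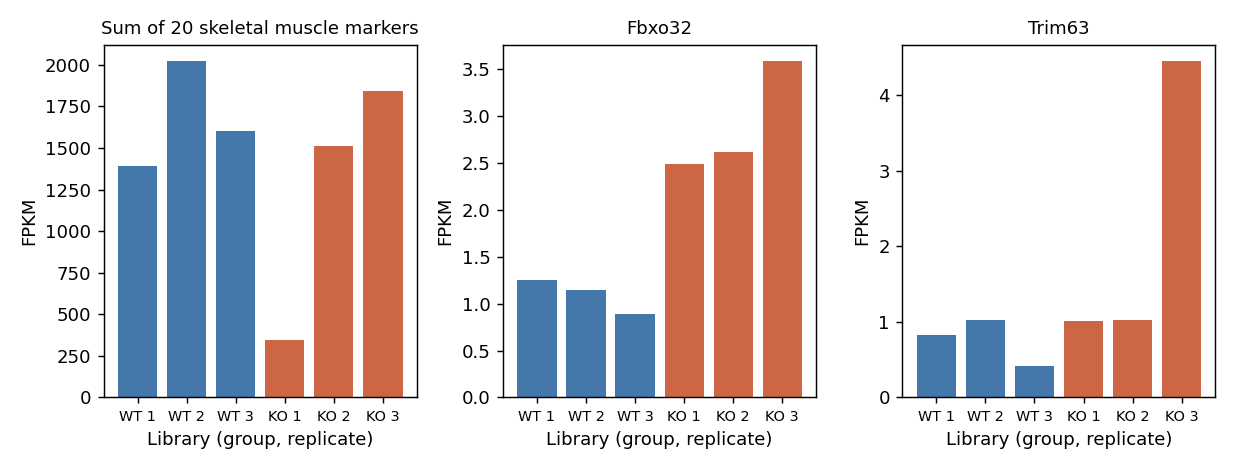
FPKM per library of the summed 20 skeletal muscle markers (left), Fbxo32 (middle) and Trim63 (right), WT in blue and KO in orange. The muscle sum is lowest in KO replicate 1 (344) while Fbxo32 is at 2.49 there, and Trim63 is high only in KO replicate 3 (4.45).

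Txnip encodes thioredoxin-interacting protein, an arrestin-domain protein that limits glucose uptake and is induced by glucose through the Mondo factors. Txnip measured 636.3, 639.37 and 590.75 FPKM in the WT libraries and 473.83, 817.03 and 1260.71 FPKM in KO. The WT libraries were within a narrow range, whereas KO replicate 1 lay below all of them and KO replicates 2 and 3 above. The coefficient of variation of Txnip was 4.38% in WT and 46.4% in KO. Its log2 fold change was 0.34 (standard error 0.30), and it was 0.00 without KO replicate 3 and 0.71 without KO replicate 1.

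KO replicate 3 was the highest KO library in 9 of the 10 genes, with Foxo1 as the exception. Over all tested genes this library was the highest KO library in 26.0%, and in 40.9% of the 1810 genes whose KO libraries all lay above WT. The median log2 difference between KO replicate 3 and the mean of the other KO libraries was 0.64 over the 10 genes and −0.07 over all tested genes. The ratio of KO replicate 3 to the other KO libraries ran from 1.13 for Foxo1, 1.39 for Crebrf, 1.40 for Fbxo32, 1.46 for Pik3ip1 and 1.52 for Ivns1abp to 2.33 for Foxo3, 3.03 for Klf15 and 4.38 for Trim63. In WT, replicate 3 was the lowest WT library in 7 of the 10 genes, against 41.6% of all tested genes.

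In WT the order of levels in FPKM, which are per length, was Txnip, Ivns1abp, Foxo1, Sesn1, Crebrf, Foxo3, Klf15, Pik3ip1, Fbxo32 and Trim63. Txnip was above 98.9% and Trim63 above 5.72% of the tested genes. In this order Crebrf and Foxo3, Foxo3 and Klf15, and Fbxo32 and Trim63 had overlapping ranges and did not differ beyond their spread. In KO, Klf15 moved from the seventh place to the fourth, between Foxo1 and Sesn1, and its range overlapped with both. The KO ranges of Txnip and Ivns1abp also overlapped, which they did not in WT.

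The nearest profiles to each gene were sought among 12139 genes that averaged 1 FPKM or more, by the root mean square difference of the log2 deviations over the 6 libraries. For Sesn1 the nearest were Zfp874b (0.030) and Tsc22d3 (0.076), the latter a glucocorticoid-induced leucine zipper gene. For Pik3ip1 they were Nr1d2 (0.10), a clock repressor that went from a mean of 9.06 to 31.6 FPKM, and Zbed5 (0.14). For Foxo3 they were Ranbp9 (0.075) and Wdr60 (0.098), for Fbxo32 Lpxn (0.053) and Syne3 (0.064), and for Trim63 Atp10d (0.10) and Fmo2 (0.12). For Txnip they were Prnp (0.13) and Spata33 (0.14), and for Foxo1 Bet1 (0.036) and 4930430F08Rik (0.046). For Klf15 they were Ap4b1 (0.30) and Gm15471 (0.36). These differences are not scaled to a gene's own root mean square deviation over the libraries, which was 1.3 for Klf15 and 0.19 for Foxo1. The nearest to Crebrf were E130102H24Rik (0.23) and the microRNA gene Mir3061 (0.24), a short feature listed at 0 in the WT libraries. For Ivns1abp they were Mir3061 (0.26) and Crebrf (0.27). Among the 10 genes themselves Fbxo32 and Sesn1 were the closest pair (0.15), and Foxo1 and Klf15 the farthest (1.2). Each profile rests on 6 values and holds both the difference between KO and WT and the spread within each group.

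The wider pathway was read from 11 lists with 158 tested genes outside the 10, of which 5 were called in limma (3.16%, against 2.21% of all tested genes at an adjusted p of 0.05). The lists were chosen with earlier results of these data known, so their counts, here and below, are a description only. The counts at an unadjusted p under 0.05 below are to be read against 19.2% of all tested genes. Glucocorticoid response genes held 3 of these calls, all higher in KO, against 1.21% of all tested genes in that direction. Per1, a clock gene with glucocorticoid response elements, rose from 22.1 ± 2.81 to 50.7 ± 8.11 FPKM (SD; limma, log2 fold change 1.16, adjusted p 0.0183). Tsc22d3 (GILZ) rose from 30.2 ± 2.31 to 65.0 ± 15.1 FPKM (SD; limma, 1.06, adjusted p 0.0304), and it lies on the X chromosome. Nfkbia, the NF-kappaB inhibitor, rose from 20.1 ± 5.51 to 43.4 ± 6.35 FPKM (SD; limma, 1.10, adjusted p 0.0391). In all 3, each KO library was above every WT library, as in 8 of the 14 genes of this list (13.6% of all tested genes). In 2 others, Dusp1 and Cebpb, each KO library was below every WT library (11.4% of all tested genes). Their log2 fold changes were −0.39 for Dusp1 (limma, adjusted p 0.231) and −0.95 for Cebpb (0.0674). Of the 14 genes of this list 11 were fitted higher, with a median log2 fold change of 0.91, and the receptor gene Nr3c1 itself was at −0.13 (limma, adjusted p 0.744). The fold changes stayed near these values when 1 library was left out, at 1.05 to 1.28 for Per1, 0.88 to 1.19 for Tsc22d3 and 0.91 to 1.29 for Nfkbia, while each call was lost in several of those fits. The adjusted p of Per1 was 0.0533 without KO replicate 1, and 0.0674 and 0.0815 without WT replicates 2 and 3. That of Tsc22d3 was 0.0734 and 0.0551 without KO replicates 2 and 3, and 0.119 and 0.107 without WT replicates 2 and 3. That of Nfkbia was 0.07, 0.0946 and 0.109 without KO replicates 1, 2 and 3, and 0.0674 and 0.129 without WT replicates 2 and 3. With no filter on low values the adjusted p were 0.0618, 0.0801 and 0.0975 for Per1, Tsc22d3 and Nfkbia. Over all alternatives they ranged from 0.0101 to 0.0815, from 0.0192 to 0.119 and from 0.0251 to 0.129.

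Autophagy genes known as FOXO targets in muscle were all fitted higher, 11 of 11, with a median log2 fold change of 0.63 and 1 call. Atg14, a subunit of the autophagy-specific PI3-kinase complex, rose from 3.23 ± 0.679 to 6.86 ± 1.34 FPKM (SD; limma, log2 fold change 0.89, adjusted p 0.0446). Its call was lost whichever library was left out, with adjusted p of 0.0736, 0.102 and 0.132 without KO replicates 1, 2 and 3 and of 0.0684, 0.108 and 0.142 without WT replicates 1, 2 and 3, although the fold change of Atg14 stayed between 0.76 and 1.02 in those fits. It was 0.118 with no filter on low values, and ranged from 0.0383 to 0.142 over all alternatives. In 7 of these 11 genes the KO libraries all lay above WT, against 13.6% of all tested genes. Among 18 other FOXO target genes 14 were fitted higher and 4 lower, with a median of 0.36. In limma 0 were called and 10 had an unadjusted p under 0.05. The KO libraries all lay above WT in 9 of the 18 (13.6% of all tested genes). They all lay below WT in 2, Bcl6 and Sod2 (11.4% of all tested genes). Bcl6 had a log2 fold change of −0.50 (limma, adjusted p 0.270) and Sod2 one of −0.40 (0.162). The cyclin G2 gene Ccng2 had a log2 fold change of 0.72 (limma, adjusted p 0.0557), the cell cycle inhibitor Cdkn1b (p27) one of 0.58 (0.0676) and the pocket protein gene Rbl2 one of 0.53 (0.0985).

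Of the other ubiquitin genes of atrophy, 11 of 19 were fitted higher and 0 were called in limma, with 6 at an unadjusted p under 0.05 and a median of 0.16. The ligase gene Cblb had a log2 fold change of 1.13 (limma, adjusted p 0.0567), the ubiquitin-conjugating enzyme gene Ube2b one of 0.59 (0.0969) and the ligase gene Fbxo30 (MUSA1) one of 0.64 (0.107). The other 8 genes of this group were fitted lower, so its members did not move one way.

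**Figure D4:**
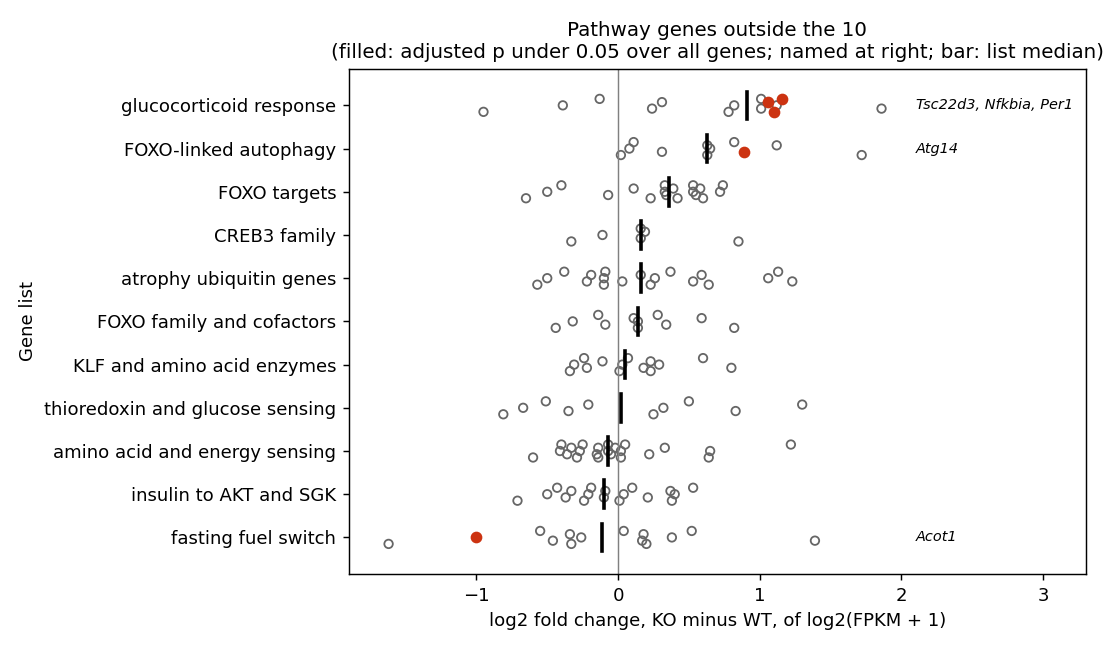
Log2 fold change (KO minus WT, of log2(FPKM + 1)) of each tested gene in the 11 lists, ordered by list median (black bars); filled points passed an adjusted p of 0.05 over all genes in limma and are named at right. Glucocorticoid response (median 0.91) and FOXO-linked autophagy (0.63) lie farthest to the right, and the fasting fuel switch list (−0.11) holds the one called fall, Acot1.

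Upstream of FOXO, insulin reaches AKT and SGK kinases through its receptor and PI3-kinase. Of 18 genes from the insulin receptor to AKT and SGK, 10 were fitted lower and 8 higher, with 0 called in limma, 5 at an unadjusted p under 0.05 and a median of −0.10. Akt1 measured 72.77, 83.15 and 84.43 FPKM in the WT libraries and 56.76, 57.64 and 53.85 FPKM in KO, with all KO libraries below WT (limma, log2 fold change −0.50, adjusted p 0.0843). Sgk1 had a log2 fold change of −0.43 (limma, adjusted p 0.205) and Pik3r1, the regulatory subunit of PI3-kinase, one of −0.71 (0.235). Of 11 other FOXO family and cofactor genes 7 were fitted higher, with 0 called in limma, 4 at an unadjusted p under 0.05 and a median of 0.14. Foxo4 had a log2 fold change of 0.59 (limma, adjusted p 0.0915), the deacetylase gene Sirt1 one of 0.82 (0.0969) and Foxk2 one of −0.44 (0.137).

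Fuel-switching genes of fasting were split, 7 higher and 7 lower of 14, with a median of −0.11. Acot1, a cytosolic acyl-CoA thioesterase, fell from 35.6 ± 6.07 to 17.4 ± 4.38 FPKM (SD; limma, log2 fold change −1.0, adjusted p 0.0435). Acot1 has a near-identical neighbour in Acot2, and how reads were split between them is not given in the sources used here. Its adjusted p was 0.122 and 0.117 without KO replicates 1 and 2, and 0.184 and 0.142 without WT replicates 2 and 3, with fold changes of −1.19 to −0.86 in the 6 fits that left out 1 library. It was 0.108 with no filter on low values and 0.0548 with quantile normalization, and ranged from 0.0308 to 0.184 over all alternatives. Of 23 genes of sestrin, GATOR, mTORC1 and AMPK signalling 15 were fitted lower and 0 were called in limma, with 6 at an unadjusted p under 0.05 and a median of −0.07. Tsc1 had a log2 fold change of 0.64 (limma, adjusted p 0.0921), Ddit4 (REDD1), an mTORC1 inhibitor, one of 1.22 (0.0990) and the GATOR subunit gene Sec13 one of −0.41 (0.141).

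Around Txnip, 10 thioredoxin and glucose-sensing genes were split 5 to 5, with 0 called in limma, 5 at an unadjusted p under 0.05 and a median of 0.02. Mlx, the partner of the Mondo factors, had a log2 fold change of −0.81 (limma, adjusted p 0.0533), the Mondo factor gene Mlxip one of 0.50 (0.118) and Arrdc2 one of 0.83 (0.163). Around Klf15, 14 KLF and amino acid enzyme genes had a median of 0.05, with 0 called in limma and 2 at an unadjusted p under 0.05. Klf5 had a log2 fold change of 0.80 (limma, adjusted p 0.0774), Klf13 one of 0.60 (0.146) and Klf14 one of −0.31 (0.269). Around Crebrf, 6 CREB3 family and partner genes had a median of 0.16, with 0 called in limma and 0 at an unadjusted p under 0.05. Herpud1 had a log2 fold change of 0.85 (limma, adjusted p 0.270), Creb3l1 one of −0.33 (0.301) and Creb3l4 one of 0.16 (0.566).

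Markers of the cell types that the depot holds are given beside these values. Of 12 adipocyte markers, not all particular to brown fat, 8 were fitted lower in KO, with a median log2 fold change of −0.55. In 6 of the 12 all KO libraries lay below WT (11.4% of all tested genes). Ucp1, the uncoupling protein of brown fat, measured 4365.84, 6124.1 and 6255.31 FPKM in the WT libraries and 2901.53, 1694.98 and 3591.5 FPKM in KO, a log2 fold change of −1.08 (limma, adjusted p 0.0804). Prdm16, a regulator of brown fat identity, was at 4.13 to 5.25 FPKM in WT and 1.68 to 3.0 FPKM in KO (limma, −0.87, adjusted p 0.0519). The 4 markers called lower in limma (1.01% of all tested genes) were Elovl3, Otop1, Plin1 and Lep, with log2 fold changes of −2.34, −1.52, −1.36 and −1.07. Lep was low throughout, at 0.91 to 2.22 FPKM in WT and 0.06 to 0.13 FPKM in KO. Fabp4, Adipoq, Cidea, Cox8b, Pparg and Dio2 overlapped between groups. The markers summed to 22300 to 28700 FPKM in WT and 22100 to 24100 FPKM in KO, most of it Fabp4, at 13999.94 to 17388.98 FPKM over the libraries. The 10 macrophage markers were all fitted higher, summing to 124 to 181 FPKM in WT and 169 to 234 FPKM in KO, with 0 called in limma and 3 at an unadjusted p under 0.05. Erythroid markers summed to 3380, 5060 and 14400 FPKM in WT replicates 1, 2 and 3 and to 3070 to 3960 FPKM in KO, so WT replicate 3 alone stood far above. Endothelial markers summed to 477 to 596 and 493 to 564 FPKM, fibroblast markers to 1090 to 1460 and 1180 to 2040 FPKM, and Schwann cell markers to 21.8 to 28.8 and 21.6 to 24.9 FPKM, in WT and KO respectively. In these 4 lists 0 genes were called in limma, and 1 gene, a fibroblast marker, had an unadjusted p under 0.05. The part of cell composition in the values of the 10 genes was not tested.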

How the data were processed

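Bulk RNA-seq of 6 libraries was used, 3 WT and 3 KO, grouped by their titles. The deposited values are FPKM, per the file headers, rounded to 2 decimals, with 1 column per library. The submitters' processing notes name HISAT2 2.0.4, Bowtie2 2.2.5 and DESeq2, and the build mm10, without roles; the counter, annotation and strand handling are not given in the sources used here. FPKM are not counts, so limma 3.58.1 (R 4.3.3, eBayes with a trend) was fitted to log2(FPKM + 1) of the 13331 genes averaging 0.5 FPKM or more, with Benjamini-Hochberg adjustment over all of them and a threshold of 0.05. The fit was tested on simulated data. Depth was estimated from the steps of low values of single-transcript genes of 500 to 1300 nt (GENCODE vM21 lengths). Of 479 to 506 values per library, 71.2% to 75.8% lay within 0.2 of a whole read. The depth was chosen to make this share as large as possible, so the share is not a check of the estimate.

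The members and lists were chosen with earlier results of these data known. Named genes are the 10 and the 2 nearest profiles per gene. From each list they are every gene past the threshold, or otherwise the 3 with the smallest p-value. Nr3c1, Dusp1, Cebpb, Bcl6, Sod2, the adipocyte markers, Ddx3y and Xist were added. Positions are GRCm38 (mm10), and promoter sequences come from RefSeq on GRCm38.p6. Alternatives were a pseudocount of 0.1, no filter, a filter at 5 FPKM, median-of-ratios scaling, quantile normalization, the replicate number as a block, and leaving out each library.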

Additional observations from a re-analysis of the deposited data

How the results depend on the processing

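The median log2 fold change of the 10 genes stayed between 0.82 and 1.24 over 11 alternatives, and was 1.09 over the 7 genes left by the filter at 5 FPKM. Each fitted fold change of these genes was above 0, except that of Txnip, at 0.00 without KO replicate 3. Genes called over the whole table numbered 35 without a filter on low values (0.5 FPKM) and 31 to 370 when 1 library was left out, with the lowest count when WT replicate 3 and the highest when WT replicate 1 was out, against 295. Pathway genes outside the 10 that were called numbered 12 with the filter at 5 FPKM, 0 with no filter (55 in limma at an unadjusted p under 0.05), and 0 to 7 when 1 library was left out, against 5. The count of 0 in limma came without WT replicate 2 (42 at an unadjusted p under 0.05) and without WT replicate 3 (53). The filter settings change how many genes are tested. The fits that left out 1 library all tested the same 13331 genes, and their counts differed with the library that was out. The causes of these differences were not tested. WT and KO share replicate numbers, but libraries with the same number hardly deviated together (correlations across genes of 0.068, 0.043 and 0.043), and they were treated as unpaired. With the replicate block 167 genes were called over the table and 3 of the pathway genes, with adjusted p in limma of 0.0546 for Tsc22d3, 0.0703 for Atg14 and 0.0569 for Acot1. Trim63, at about 10.9 to 27.8 reads in 5 libraries, is the gene whose precision depth limits most.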

Other observations

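Beyond the genes named by rule, several genes of the same lists stood highest in KO replicate 3, and they were picked after their values were seen. Pdk4, the kinase that shuts pyruvate out of the mitochondrial oxidation pathway in fasting, measured 288.28, 222.47 and 267.72 FPKM in the WT libraries against 203.71, 216.25 and 784.9 FPKM in KO. Arrdc3, an arrestin-domain relative of Txnip, measured 16.89, 11.07 and 8.74 FPKM in the WT libraries against 11.94, 19.35 and 117.09 FPKM in KO. Sesn2 measured 13.17, 11.23 and 16.3 FPKM in the WT libraries against 18.49, 12.0 and 44.76 FPKM in KO. In each of these 3 genes KO replicate 3 stood apart, while the other KO libraries did not both lie above WT. Of the 158 pathway genes outside the 10, KO replicate 3 was the highest KO library in 74 (46.8%), against 26.0% of all tested genes.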
